A study of Mus musculus with 16 samples.

Results

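The 32 genes described here make sterols and fatty acids or control that synthesis, and all 32 were found by symbol among the 52997 gene symbols of the deposited count table. They were taken as a named list and fall into 18 enzymes of sterol synthesis, 6 regulators and carriers, and 8 enzymes of fatty acid synthesis and desaturation. RNA was measured in 16 mouse libraries of 7 groups, made from regulatory T cells (Tregs, T cells marked by Foxp3 that hold other immune cells in check) or from whole skeletal muscle of B6 mice aged 6 to 8 weeks. Mice carried the T cell receptor transgene mTreg24 TCR-tg+ (Tg), whose receptor comes from a muscle Treg, or lacked it, mTreg24 TCR-tg- (WT). Muscle was injured with cardiotoxin, a snake venom protein that destroys fibres.

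The 5 Treg groups of 2 libraries each came from Foxp3 GFP+ reporter mice, a reporter that Tg and WT donors shared. These were muscle Tregs of Tg and of WT mice and spleen Tregs of injured Tg mice, all at day 3 after injury, spleen Tregs of uninjured Tg mice, and spleen Tregs of WT mice. The injury of the WT spleen donors at day 3 is given by the series' design text only. Tg Tregs were sorted as Vβ8+ cells and WT Tregs as total Tregs, so the transgene and the sorting gate cannot be told apart in any Tg against WT comparison of Tregs. Whole muscle was taken at day 8 from 3 Tg and 3 WT mice or pools, with no Foxp3 GFP+ in the strain label. The labels do not say whether the libraries of a group came from separate animals, so p-values reflect only how far these samples lie apart, and that spread may be technical. What drives the transgene is not given in the sources used here.

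Sterol synthesis starts from acetyl-CoA, runs through mevalonate and farnesyl diphosphate to squalene, and then through lanosterol to cholesterol. Its genes are switched on together by the transcription factors SREBP-2 and SREBP-1, encoded by Srebf2 and Srebf1, which the escort protein Scap carries from the endoplasmic reticulum to the Golgi for cleavage when sterols are scarce. Insig proteins hold Scap back when sterols are plentiful. Activated and dividing T cells draw on both branches, since new membranes need cholesterol and fatty acids, and in Tregs the mevalonate branch has been tied to suppressive function.

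SREBPs bind sterol regulatory elements near gene starts, usually beside sites for the general factors NF-Y (CCAAT) and Sp1 (GGGCGG, the GC box). RefSeq promoters of build GRCm38.p6, the build the files use under the name mm10, run from 250 bases before to 50 bases after each gene start, and 25 of the 32 genes matched one. Those of Hmgcs1, Mvd and Msmo1 are shown because these sterol enzymes had the smallest unadjusted p-values between Tg and WT muscle Tregs, and that of Insig1 because it is the feedback gene of the pathway. They are written 5′ to 3′ on the gene's strand, with capitals at each CCAAT, read on either strand (ATTGG on the other), and at the sterol element core.
Hmgcs1 (chr13:119690101-119690400, plus strand): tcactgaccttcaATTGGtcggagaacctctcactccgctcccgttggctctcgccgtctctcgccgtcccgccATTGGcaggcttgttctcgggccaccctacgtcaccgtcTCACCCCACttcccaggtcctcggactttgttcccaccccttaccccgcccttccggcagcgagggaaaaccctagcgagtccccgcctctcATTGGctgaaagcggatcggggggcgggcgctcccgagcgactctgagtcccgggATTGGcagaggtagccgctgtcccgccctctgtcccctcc
Mvd (chr8:122443373-122443672, minus strand): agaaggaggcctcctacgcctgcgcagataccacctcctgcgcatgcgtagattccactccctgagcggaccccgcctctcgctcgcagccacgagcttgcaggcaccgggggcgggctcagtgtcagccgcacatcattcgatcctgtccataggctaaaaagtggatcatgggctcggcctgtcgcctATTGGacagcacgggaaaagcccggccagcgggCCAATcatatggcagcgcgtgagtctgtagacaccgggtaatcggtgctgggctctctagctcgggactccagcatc
Msmo1 (chr8:64733529-64733828, minus strand): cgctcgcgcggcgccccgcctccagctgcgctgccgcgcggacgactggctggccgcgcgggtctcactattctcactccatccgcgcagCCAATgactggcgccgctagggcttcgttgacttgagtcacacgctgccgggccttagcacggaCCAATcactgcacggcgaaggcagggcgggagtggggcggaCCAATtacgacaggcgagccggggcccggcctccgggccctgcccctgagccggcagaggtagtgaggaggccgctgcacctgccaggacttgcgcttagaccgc
Insig1 (chr5:28071162-28071461, plus strand): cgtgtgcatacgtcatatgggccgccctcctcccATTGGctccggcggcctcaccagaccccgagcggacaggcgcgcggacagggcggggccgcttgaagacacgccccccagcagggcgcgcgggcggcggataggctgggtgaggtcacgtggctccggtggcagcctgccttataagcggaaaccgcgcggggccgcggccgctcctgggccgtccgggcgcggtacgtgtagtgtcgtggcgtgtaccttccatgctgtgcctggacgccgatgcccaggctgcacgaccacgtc

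The Hmgcs1 promoter held the sterol element core TCACCCCAC at position -137 from the start and 4 CCAAT boxes. The core was searched as TCACNCCAC on both strands, and Hmgcs1 was the 1 gene of the 15 matched sterol enzymes to hold it, against 1.44% of all 27025 genes of the table and 1.37% of the 9207 matched genes that were tested in Tregs. A CCAAT box was present in 14 of the 15 sterol enzymes (93.3%), against 43.0% of the genes tested in Tregs. A GC box was also present in 14 of 15, where the genes tested in Tregs stood at 67.8%. Of the 5 matched fatty acid enzymes, 2 held a CCAAT box (40.0%), and of the 5 matched regulators, 4 did (80.0%). The E-box form TCACNTGA was found at 1 start of Insig2 and in no other matched gene of the 32. A match is a stretch of letters and no evidence of binding, and short motifs occur by composition alone.

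Library totals ran from 1986700 to 9116800 counts in Tregs and from 5095999 to 7075420 in whole muscle, and 3 counts, the limit that a count of 0 allows, equal 1.51 to 0.329 CPM (counts scaled to a common library total) across the 16 libraries, for counting error only. WT muscle Treg replicate 2 was the deepest library and had the fewest detected genes (17081), and the WT muscle pair differed by 31.9 in chi-square per degree of freedom, against 5.90 to 9.92 in the other groups. Summed Treg markers (Foxp3, Il2ra, Ctla4, Ikzf2, Cd3e and Cd4) lay between 4410 and 7218 CPM in the Treg libraries and between 7.06 and 13.4 CPM in whole muscle. Muscle fibre markers lay between 7.56 and 17.6 CPM in Tregs and at 147921 CPM or more in every whole muscle library. WT spleen Treg replicate 2 held B cell markers at 1948 CPM, nearly all of it Igkc, where the other Treg libraries held 43.2 to 145 CPM.

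Unless library total is named, levels below are CPM scaled by TMM, a per-library factor that corrects for differences in composition, computed apart for the Tregs and for whole muscle. Tests were edgeR quasi-likelihood tests with Benjamini-Hochberg adjustment over all tested genes, and a gene is said to have risen or fallen where its adjusted p was under 0.05. Of the 32 genes, 30 passed the low-count filter in Tregs, and the desaturase genes Scd1 and Fads2 did not.

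Tregs devoted about 3 to 4 times as large a share of their counts to these genes as whole muscle did. Scaled by library total, the only scale shared by both kinds of sample, the 18 sterol enzymes summed to 889 ± 39.6 CPM in WT muscle Tregs (SD, n = 2), 666 ± 78.3 in Tg muscle Tregs (n = 2), 948 ± 8.79 in WT spleen Tregs (n = 2), 859 ± 57.8 in spleen Tregs of injured Tg mice (n = 2) and 935 ± 67.4 in those of uninjured Tg mice (n = 2). Whole muscle stood at 218 ± 13.0 in WT and 231 ± 9.87 in Tg mice (n = 3 each). The ratio of WT muscle Tregs to WT whole muscle was 4.07 for sterol enzymes, 4.11 for regulators and 4.23 for fatty acid enzymes, and the same ratios in Tg mice were 2.88, 3.54 and 3.63. In bulk samples such as these, fewer cells of a type and less RNA per cell cannot be told apart, and muscle fibre genes take a large part of the whole muscle counts.

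**Figure D1:**
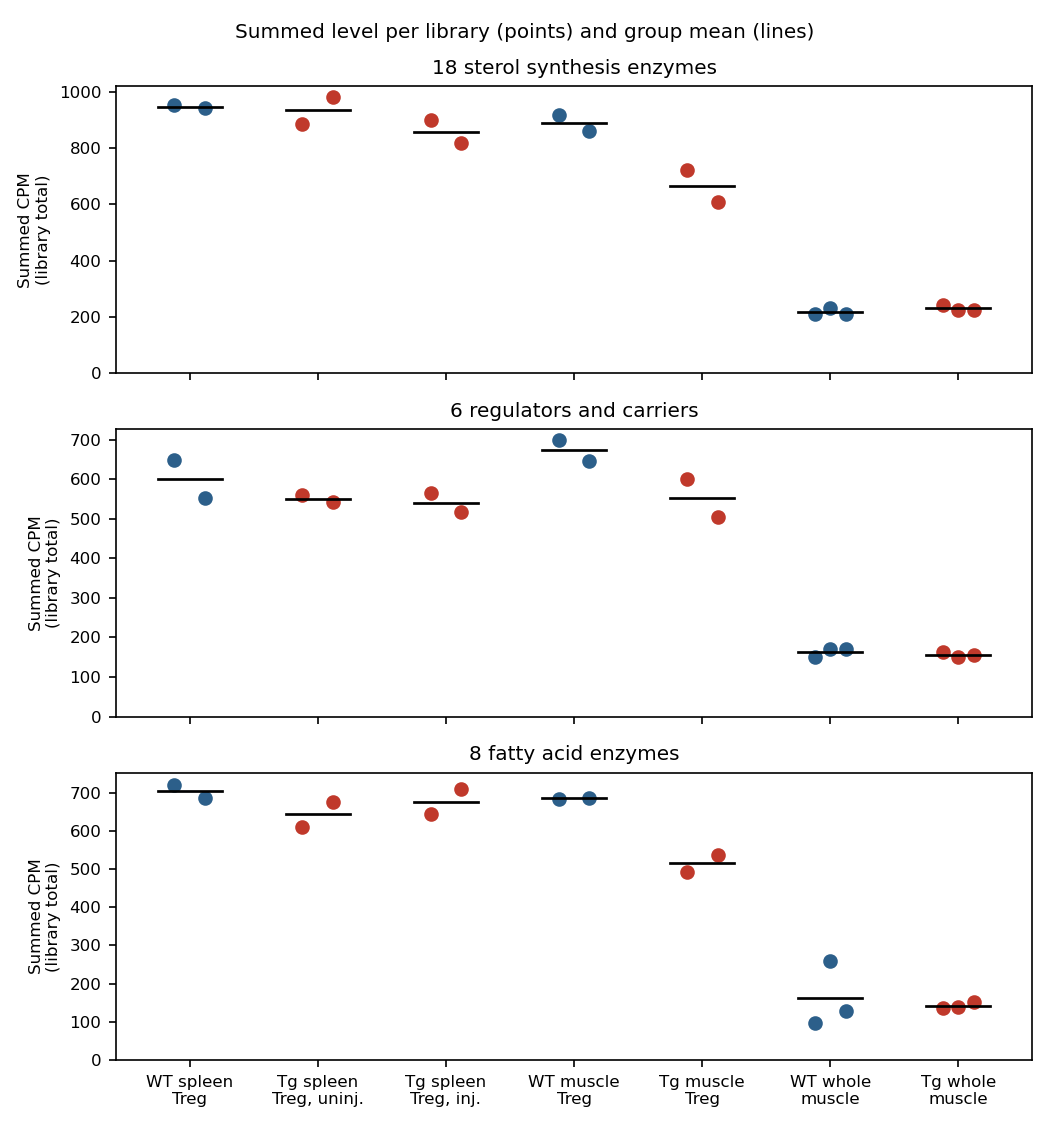
Summed CPM by library total (vertical axes) of the 18 sterol enzymes, 6 regulators and carriers, and 8 fatty acid enzymes in each of the 16 libraries. Points are libraries, blue WT and red Tg, and lines are group means; the 2 Tg muscle Treg libraries have the lowest sterol sums of the 10 Treg libraries, 610 and 721 CPM.

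Among the 5 Treg groups, the mean sterol sum was lowest in Tg muscle Tregs on both scales. After TMM scaling the Tg muscle libraries, at 782 and 664 CPM, overlapped those of injured Tg spleen, at 851 and 776. The ratio of the sterol sum in Tg to WT muscle Tregs was 0.749 by library total and 0.753 after TMM scaling, and the fatty acid sum gave 0.752 and 0.755. The WT muscle to WT spleen ratio of the sterol sum changed sides with the scale, from 0.938 by library total to 1.06 after TMM scaling, and that of the fatty acid sum from 0.973 to 1.10. No test was run on the sums.

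To set different genes side by side, CPM by library total was divided by kilobases of exon. The divisor was all annotated exon bases of a gene, such as 17074 for Acaca and 4403 for Tm7sf2. It is not the length of 1 transcript, so the ranks are approximate. Acly encodes the enzyme that makes cytosolic acetyl-CoA from citrate for both branches. It was the highest of the 32 in WT muscle Tregs at 91.0 ± 9.92 CPM per kb (SD, n = 2). Ebp, a sterol isomerase, followed at 47.2 ± 8.72, then Mvd at 36.4 ± 4.10, Srebf1 at 35.6 ± 1.20 and Srebf2 at 31.6 ± 4.03, the last 3 within each other's spread. Scd1 and Fads2 were listed at 0, and the lowest of the 30 tested genes were Acaca, which commits acetyl-CoA to fatty acids, at 0.745 ± 0.254, and Tm7sf2, a sterol reductase, at 0.888 ± 0.480. Acaca shares 32.6% of its 25-base stretches with the pseudogene Gm5182, and reads of that length may have been lost or split. Insig2 led in WT whole muscle at 19.8 ± 1.35 CPM per kb (n = 3), ahead of Scd1 and Fdft1 at 14.8 each, with SDs of 12.9 and 1.23. Fdft1 overlaps Ctsb on the other strand, by 774 bases at its longest-overlapping exon, and shares 34.1% of its 25-base stretches with other transcripts, so its level is uncertain.

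Among the sterol enzymes, 1 gene differed between Tg and WT muscle Tregs. Hmgcs1 (chr13:119690379-119708260), which makes the HMG-CoA that feeds mevalonate synthesis, stood at 126 and 101 CPM in WT muscle Tregs and at 63.9 and 46.6 CPM in Tg muscle Tregs. In spleen Tregs it stood at 122 and 97.5 CPM in WT mice, at 93.8 and 84.3 in injured Tg mice and at 84.6 and 102 in uninjured Tg mice. The 2 Tg muscle libraries lay below every other Treg library. The WT spleen pair overlapped the WT muscle pair, while the injured Tg spleen pair lay between the 2 muscle pairs with no overlap. Hmgcs1 fell by 1.05 on the log2 scale (SE 0.21, adjusted p = 0.0493, edgeR), and 0 sterol enzymes rose, where 0.197% of all tested genes were called lower and 0.121% higher.

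That call stood close to its threshold. It was lost without Tg muscle replicate 1 (adjusted p = 0.0604) and without Tg muscle replicate 2 (0.234), and over the other alternatives its adjusted p ran from 0.000111 (no low-count filter) to 0.453 (a fit of the 2 compared groups only), with the log2 fold change between -1.07 and -1.03. Hmgcs1 exons overlap the antisense gene Gm48342 by 458 bases at its longest-overlapping exon, which this unstranded library type cannot tell apart.

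The other sterol enzymes lay mostly on the same side without passing the test. Genes described from here on that passed no test were chosen after their values were seen. Of the 18, 16 had a negative log2 fold change, with a median of -0.55, against a median of -0.01 over all genes and 50.5% of genes below 0. Both WT libraries lay above both Tg libraries for 13 of the 18, and the reverse held for 0, where 17.8% and 18.3% of all tested genes were separated in these directions. The 13 were Hmgcs1, Mvk, Pmvk, Mvd, Idi1, Fdps, Fdft1, Sqle, Lss, Cyp51, Msmo1, Nsdhl and Hsd17b7. Of these, Fdps overlaps Gm43738 on the same strand and shares 28.4% of its 25-base stretches with other transcripts, so its level is uncertain. Across the alternatives the number below 0 was 16 of 18, except for 15 of 17 with a filter at 5 CPM and 14 of 18, with a median of -0.39, without Tg muscle replicate 2.

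In the mevalonate stage, Mvd, which decarboxylates mevalonate diphosphate, stood at 76.4 and 69.7 CPM in WT and at 40.0 and 40.2 CPM in Tg muscle Tregs. The pairs did not overlap, and each agreed closely within itself, yet the difference was not called (log2 fold change -0.86, SE 0.21, edgeR adjusted p = 0.128; 0.0418 to 0.511 over the alternatives other than leaving out a library). The kinase gene Mvk gave 10.6 and 18.8 CPM in WT and 8.97 and 6.87 in Tg, and the isomerase gene Idi1 gave 8.36 and 6.01 in WT and 3.37 and 1.47 in Tg. The value for Mvk was -0.92, and -0.44 without WT muscle replicate 2. Idi1 rests on as few as 6 counts in a Tg library, and it shares 27.8% of its 25-base stretches with other transcripts.

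In the squalene and lanosterol stages, Sqle, the squalene epoxidase, stood at 47.5 and 53.7 CPM in WT and at 28.8 and 31.6 in Tg muscle Tregs. Msmo1, a methylsterol oxidase, stood at 88.6 and 77.6 in WT and at 52.0 and 52.5 in Tg. Cyp51, the lanosterol demethylase, stood at 126 and 112 in WT and at 99.1 and 66.0 in Tg. All 3 were lower in both Tg libraries, with log2 fold changes of -0.74, -0.67 and -0.54 and edgeR adjusted p of 0.245, 0.189 and 0.470. The value for Cyp51 was -0.86 without Tg muscle replicate 1 and -0.27 without Tg muscle replicate 2. Library values overlapped between genotypes for Sc5d and Dhcr7, which act near the end of the pathway, and for the thiolase gene Acat2 at its start. The 2 positive values were 0.22 for Ebp and 0.58 for Tm7sf2, the reductase that follows Cyp51. Acat2 shares 45.5% of its 25-base stretches with Acat3, so its reads may be split.

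**Figure D2:**
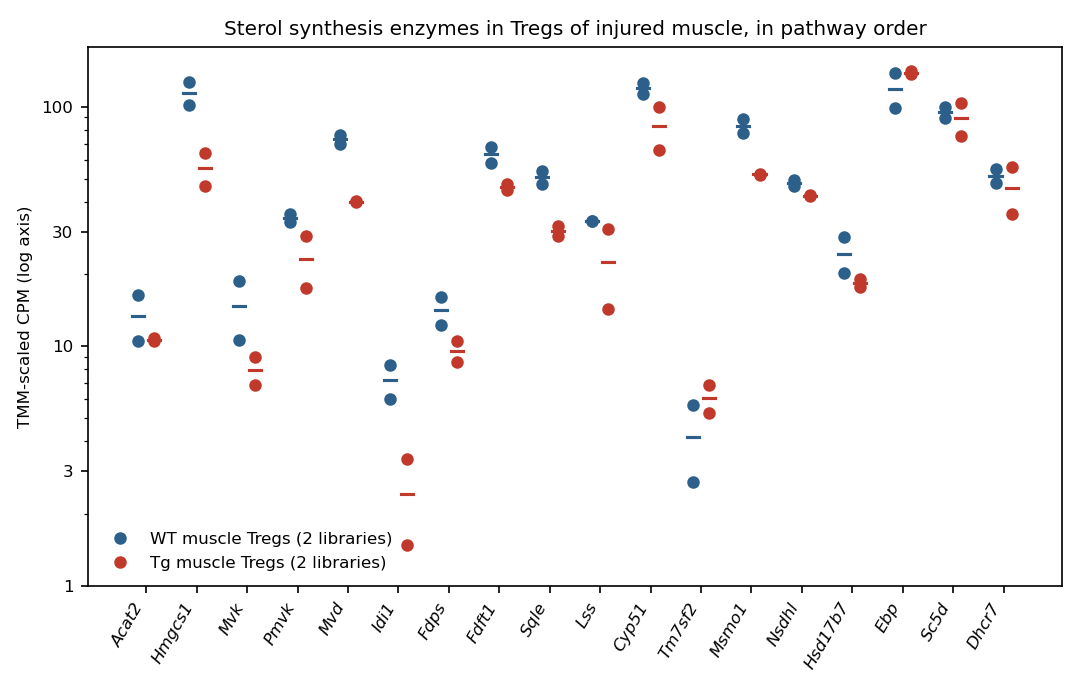
TMM-scaled CPM (vertical log axis) of the 18 sterol enzymes in pathway order (horizontal axis) in WT (blue) and Tg (red) muscle Tregs; points are libraries, 2 per group, and short lines are means. Both red points lie below both blue points for 13 enzymes, while Ebp and Tm7sf2 have the higher mean in Tg cells.

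Genes of the cell cycle were read beside these, because dividing cells draw on sterol synthesis. Of 10 such genes (such as Mki67 and Mcm2), 9 had a negative log2 fold change between Tg and WT muscle Tregs, with a median of -0.19, and 0 were called by edgeR (0 with an unadjusted p under 0.05). Their part in the sterol values was not tested. By library total, macrophage markers summed to at most 16.6 CPM, and B cell markers to at most 82.7, in the 4 muscle Treg libraries.

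Between tissues, the sterol enzymes divided evenly in WT mice and leaned low in Tg mice after TMM scaling. By library total most of the 18 had a lower mean in WT muscle than in WT spleen Tregs. On that scale the muscle to spleen ratio of the sterol sum was 0.938 in WT and 0.775 in injured Tg mice. In WT muscle against WT spleen Tregs, 9 had a positive and 9 a negative log2 fold change (median 0.01, against -0.04 over all genes), 1 rose and 1 fell, where 9.38% of all genes were called higher and 6.87% lower. Library values were separated upward for 6 and downward for 4, against 26.3% and 29.6% of all genes. In Tg muscle against spleen Tregs of injured Tg mice, 14 of 18 were negative (median -0.29, against -0.04 over all genes) and 0 were called, where 4.83% of all genes were called higher and 2.55% lower. Here 9 lay lower and 3 higher with no overlap, against 27.8% and 25.4% of all genes. The Tg muscle libraries enter both this comparison and that with WT muscle. By library total, macrophage markers summed to 2.38 to 16.6 CPM in the muscle Treg libraries and to 37.7 to 105 CPM in the spleen Treg libraries, and their part in the tissue differences was not tested.

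Ebp (chrX:8185329-8193512) rose and Tm7sf2 (chr19:6062821-6068373) fell in WT muscle Tregs. Ebp stood at 99.0 and 138 CPM in WT muscle and at 85.6 and 73.0 in WT spleen Tregs, with 136 and 141 in Tg muscle, 122 and 107 in injured Tg spleen and 125 and 114 in uninjured Tg spleen. WT spleen was the group with the lowest Ebp, below every other Treg library, and the log2 fold change of WT muscle over it was 0.59 (SE 0.19, edgeR adjusted p = 0.0431). Tm7sf2 stood at 5.65 and 2.70 CPM in WT muscle and at 14.9 and 13.3 in WT spleen, with 5.24 and 6.87 in Tg muscle, 7.93 and 6.28 in injured and 5.46 and 7.69 in uninjured Tg spleen. WT spleen was thus the highest group for Tm7sf2, and the fold change was -1.78 (SE 0.54, edgeR adjusted p = 0.0363). Tm7sf2 exons overlap Vps51 on the same strand, by 532 bases at the longest-overlapping exon.

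These calls each depended on single libraries. Without WT muscle replicate 2, WT spleen replicate 1 or WT spleen replicate 2, neither Ebp (edgeR adjusted p 0.0680 to 0.359) nor Tm7sf2 (0.120 to 0.217) passed, and a fit of the 2 groups alone gave 0.139 and 0.113. Tm7sf2 was also lost without the low-count filter (0.0697), with 0.0102 to 0.113 over the 8 alternatives other than leaving out a library. Without WT muscle replicate 2 the log2 fold change of Ebp was 0.34. The B cell markers of WT spleen replicate 2 stand beside these values, and their part was not tested.

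The regulators lay higher in WT muscle than in WT spleen Tregs without passing the test. After TMM scaling all 6 (Insig1, Insig2, Scap, Srebf1, Srebf2 and Stard4) were higher in both WT muscle libraries than in both WT spleen libraries, against the 26.3% of all genes given above. Their median log2 fold change was 0.37, with a range from 0.21 for Scap to 0.61 for Stard4, a cytosolic sterol carrier. This separation depended on the scale. By library total the pairs stayed apart for Insig1 and overlapped for the others. Scap gave 10.4 ± 0.179 CPM per kb in WT muscle and 10.2 ± 0.227 in WT spleen (SD, n = 2 each). The summed regulators gave 698.3 and 646.8 CPM in WT muscle and 647.8 and 552.5 in WT spleen by library total. By edgeR, 0 of the 6 were called, and 1 (Stard4) had an unadjusted p under 0.05. The value for Stard4 was 0.27 without WT spleen replicate 2, 0.39 without WT muscle replicate 1 and 1.00 without WT spleen replicate 1. In Tg mice 2 regulators were positive and 4 negative, with a median of -0.03.

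Srebf1 (chr11:60199089-60222581) rose in muscle Tregs of Tg mice. It stood at 248 and 181 CPM in Tg muscle and at 137 and 124 in spleen Tregs of injured Tg mice, with 129 and 146 in uninjured Tg spleen, 214 and 219 in WT muscle and 189 and 159 in WT spleen. The muscle libraries of both genotypes reached 181 CPM or more, the Tg spleen libraries stayed at 146 or less, and the WT spleen pair overlapped the muscle range. The log2 fold change was 0.72 (SE 0.17, edgeR adjusted p = 0.0175) in Tg mice and 0.32 (SE 0.17, adjusted p = 0.228) in WT mice. The test of the difference between these effects gave 0.40 (SE 0.24, adjusted p = 0.742), so a difference between genotypes was not shown. The call was kept in all 8 alternatives other than leaving out a library, and was lost without Tg muscle replicate 1 (log2 fold change 0.48, adjusted p = 0.212), injured Tg spleen replicate 1 (0.0767) or injured Tg spleen replicate 2 (0.172).

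Between genotypes in muscle, Srebf2 stood at 259 and 231 CPM in WT and at 172 and 154 in Tg Tregs. Spleen Tregs gave 211 and 172 in WT, 168 and 168 in injured Tg and 198 and 144 in uninjured Tg mice. Insig1, the feedback gene that is itself an SREBP target, stood at 88.1 and 95.6 in WT muscle and at 44.5 and 72.1 in Tg muscle, with 73.6 and 64.6 in WT spleen, 67.5 and 50.9 in injured and 60.7 and 54.9 in uninjured Tg spleen. For both genes the 2 WT muscle libraries were, after TMM scaling, the highest of all 10 and did not overlap the Tg muscle pair. Neither difference between the muscle groups was called (Srebf2 -0.59, SE 0.17, adjusted p = 0.246; Insig1 -0.65, SE 0.23, adjusted p = 0.418, edgeR). The Insig1 value was -0.36 without Tg muscle replicate 1 and -1.05 without Tg muscle replicate 2. Srebf1 showed no such separation, with a log2 fold change of -0.02 (SE 0.17) between Tg and WT muscle. Scap gave 79.5 and 87.2 CPM in WT and 112 and 62.8 in Tg, the Tg pair lying on both sides of the WT pair.

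**Figure D3:**
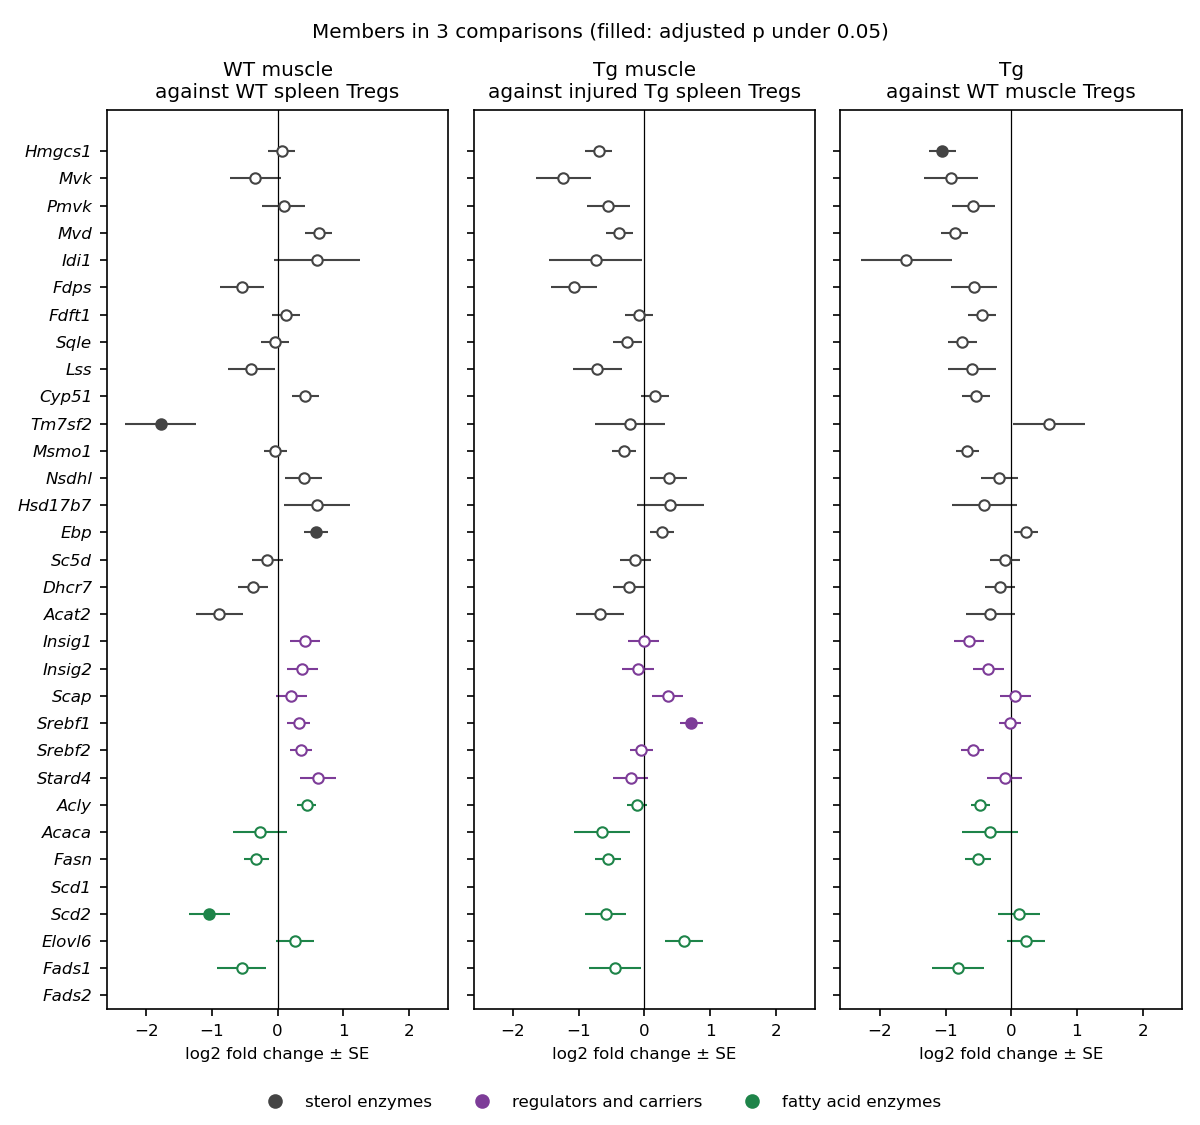
Log2 fold change ± SE (horizontal axes) of the 30 tested genes in WT muscle against WT spleen Tregs, Tg muscle against injured Tg spleen Tregs, and Tg against WT muscle Tregs, coloured by role. Filled points passed an adjusted p under 0.05: Ebp, Tm7sf2 and Scd2 in the left panel, Srebf1 in the middle and Hmgcs1 on the right; Scd1 and Fads2 were not tested.

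In the fatty acid branch 1 of the 6 tested genes was called lower and 0 higher in WT muscle against WT spleen Tregs, where 6.87% and 9.38% of all genes were. Scd2 (chr19:44293674-44306864), the stearoyl-CoA desaturase of lymphoid and brain tissue, stood at 41.4 and 20.5 CPM in WT muscle and at 71.2 and 55.1 in WT spleen Tregs, with 33.7 and 32.9 in Tg muscle, 58.7 and 41.5 in injured and 41.3 and 56.9 in uninjured Tg spleen. Muscle lay below spleen in each genotype at day 3 with no overlap. Scd2 fell by 1.04 on the log2 scale in WT muscle against WT spleen Tregs (SE 0.31, edgeR adjusted p = 0.0364). In Tg mice the value was -0.59 (SE 0.32, adjusted p = 0.321). The WT value was -1.60 without WT muscle replicate 1 and -0.59 without WT muscle replicate 2. The call was lost without WT muscle replicate 2 (adjusted p = 0.273), WT spleen replicate 1 (0.178) or WT spleen replicate 2 (0.0840), and in a fit of the 2 groups alone (0.123).

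Its paralog Scd1 was listed at 0 in 8 of the 10 Treg libraries and reached 3.59 CPM in 1 library, injured Tg spleen replicate 2, while in whole muscle it stood at 20.7, 138 and 56.8 CPM in WT and at 30.6, 52.6 and 68.3 CPM in Tg mice. Sorted Tregs thus held RNA of Scd2 with little or none of Scd1, and whole muscle held both. The 2 genes share under 10% of their 25-base stretches with any other gene. Fads2, the delta-6 desaturase gene, reached at most 1.28 CPM in any Treg library and lay between 2.30 and 4.40 CPM in whole muscle.

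Acly stood at 463 and 579 CPM in WT muscle and at 359 and 394 in Tg muscle Tregs, with 356 and 410 in WT spleen, 372 and 442 in injured and 380 and 405 in uninjured Tg spleen. After TMM scaling WT muscle held the 2 highest libraries of all 10. Acly was not called against WT spleen (log2 fold change 0.44, SE 0.15, edgeR adjusted p = 0.0517; 0.0226 to 0.148 over the alternatives other than leaving out a library) or between genotypes in muscle (-0.47, SE 0.15, adjusted p = 0.308). Without WT muscle replicate 2 these values were 0.28 and -0.30, and without WT muscle replicate 1 both were called, at 0.61 (adjusted p = 0.00997) and -0.63 (0.0368).

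Fasn, the fatty acid synthase gene, stood at 128 and 106 CPM in WT muscle and at 74.4 and 89.3 in Tg muscle, with 175 and 118 in WT spleen, 121 and 120 in injured and 125 and 127 in uninjured Tg spleen. The Tg muscle pair was the lowest, below all 8 other Treg libraries, with a log2 fold change to WT muscle of -0.51 (SE 0.20, edgeR adjusted p = 0.462). Of the 6 tested fatty acid enzymes, 4 were negative between Tg and WT muscle (median -0.39), 3 of them with no overlap (Acly, Fasn and the delta-5 desaturase gene Fads1), where 17.8% of all genes were separated downward. After TMM scaling the elongase gene Elovl6 was higher in both Tg libraries (43.0 and 48.8 against 41.8 and 36.9 CPM), where 18.3% of all genes were separated upward. By library total the Elovl6 pairs overlapped, at 6.57 ± 0.570 CPM per kb in Tg and 5.68 ± 0.768 in WT muscle (SD, n = 2 each).

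Whether the muscle against spleen difference itself depended on the genotype was tested by an interaction term. By edgeR, 0 of the 30 genes were called (0.0531% of all genes were called higher and 0.0834% lower). Of all 13188 tested genes 1046 had an unadjusted p under 0.05, and of the 30 genes 4 did. These were Mvd at -1.005 (SE 0.29, adjusted p = 0.305), Hmgcs1 at -0.76 (SE 0.29, adjusted p = 0.521), Stard4 at -0.82 (SE 0.38, adjusted p = 0.622; -0.48 without WT spleen replicate 2) and Acly at -0.56 (SE 0.21, adjusted p = 0.498). DESeq2 and limma-voom also called 0. Cells of both genotypes and tissues enter this test, and the spread of 2 libraries per group sets its reach.

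In spleen Tregs of injured Tg against WT mice, 15 of the 18 sterol enzymes were negative, with a median of -0.25 against 0.00 over all genes. By edgeR, 0 of the 30 genes were called, 6 had an unadjusted p under 0.05, and 0 were called by DESeq2 or by limma-voom. Over all 13188 tested genes, 0.887% were called higher and 0.417% lower, and 1422 had an unadjusted p under 0.05. Among sterol enzymes, 6 lay lower and 1 (Ebp) higher with no overlap, against 21.3% and 21.8% of all genes. The median without WT spleen replicate 1 was -0.10 over the 31 genes then tested, against -0.21 over 30 with it. Injury of Tg mice left 0 genes called in spleen Tregs by edgeR, DESeq2 or limma-voom, 0% of all genes in each direction. By edgeR, 236 of all 13188 tested genes had an unadjusted p under 0.05. Of the 30, 2 had an unadjusted p under 0.05, namely Sqle (-0.60, SE 0.21) and Cyp51 (-0.47, SE 0.21; -0.31 without injured Tg spleen replicate 2), each with an edgeR adjusted p of 1.

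In whole muscle at day 8, 31 of the 32 genes were tested, all except Idi1, and edgeR called 0 of them between Tg and WT mice, as did DESeq2 and limma-voom. Over all genes, 0.0323% were called higher and 0% lower. The sterol enzymes gave 9 positive and 8 negative values with a median of 0.03, and the fatty acid enzymes 2 positive and 6 negative with a median of -0.19. Unadjusted p-values were under 0.05 for Dhcr7, the last reductase of one route to cholesterol, at 0.94 (SE 0.36), and for Fads1 at 0.74 (SE 0.30), each with an edgeR adjusted p of 0.994. Dhcr7 stood at 5.82, 4.30 and 5.20 CPM in WT and at 11.8, 6.77 and 10.8 in Tg muscle, and Fads1 at 7.04, 8.32 and 11.0 in WT and at 12.1, 16.5 and 15.2 in Tg. The 3 Tg libraries lay above the 3 WT libraries for both genes, which were picked by that p-value. Of all 12377 tested genes 598 had an unadjusted p under 0.05, and the share of all genes separated in this way was not computed. By library total, macrophage markers summed to 198, 669 and 464 CPM in the WT and to 814, 699 and 622 CPM in the Tg libraries, and their part in these values was not tested.

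Of the 8 fatty acid enzymes, Scd1, Fasn and Elovl6 spread widely among the WT whole muscle libraries. Scd1 reached 138 CPM in WT replicate 2, Fasn gave 15.1, 36.4 and 11.0 CPM in WT replicates 1 to 3, and Elovl6 gave 1.53, 5.17 and 0.600. In the Tg libraries Fasn gave 20.2, 22.5 and 13.1 CPM and Elovl6 gave 3.73, 1.89 and 0.430. WT replicate 2 was the highest of all 6 libraries for these 3 genes. The other 5 enzymes were closer together in WT muscle, such as Acly at 24.2 ± 3.64 and Fads1 at 8.79 ± 2.02 CPM (SD, n = 3 each), and Fads1 was not highest in replicate 2. The fatty acid sum was 162 ± 86.3 CPM by library total in WT and 142 ± 8.71 in Tg muscle (SD, n = 3 each). Adipocyte markers were high in the same library: the sum of the 7 by library total was 111, 252 and 181 CPM in WT and 124, 111 and 133 CPM in Tg libraries. Adipoq, the adiponectin gene, stood at 14.7, 34.9 and 17.6 CPM in WT and at 5.60, 15.6 and 15.9 in Tg muscle, and Cidec, a lipid droplet gene, at 6.89, 19.1 and 5.40 in WT and at 6.37, 8.81 and 10.8 in Tg. Of the 7 markers, WT replicate 2 was the highest library for Adipoq, Cidec, Lep, Retn and Cfd, and it was not for Plin1 and Adrb3. The part of fat cells in the fatty acid values was not tested.

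**Figure D4:**
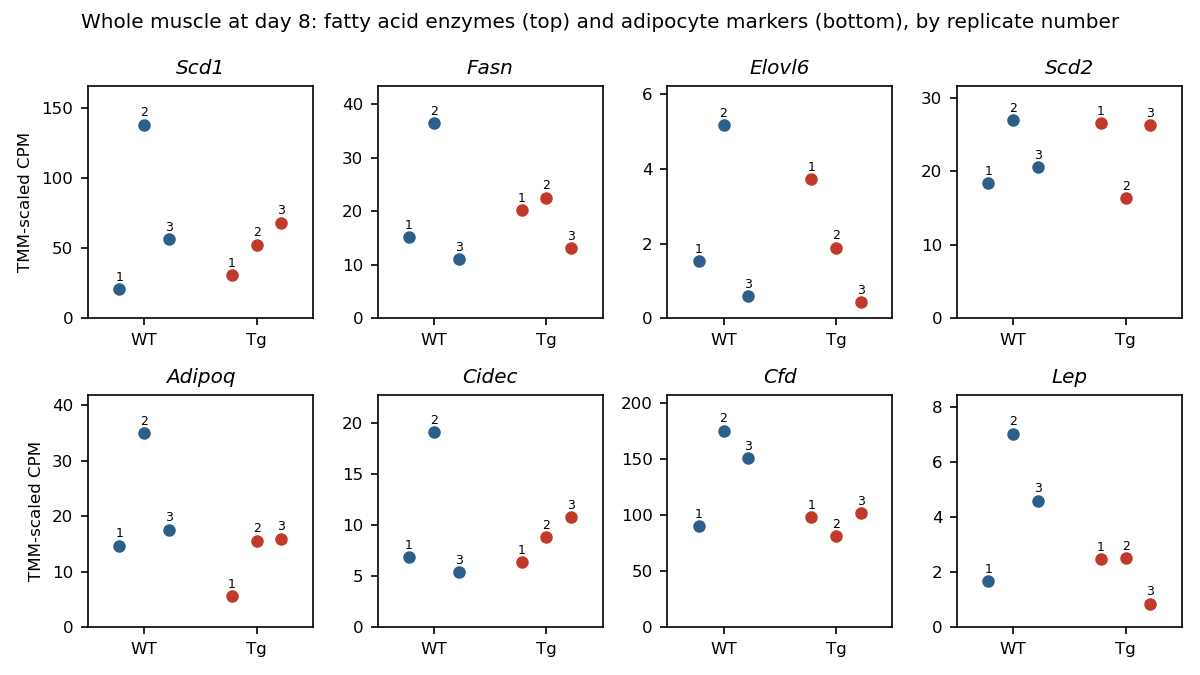
TMM-scaled CPM (vertical axes) of 4 fatty acid enzymes (top) and 4 adipocyte markers (bottom) in the 3 WT (blue) and 3 Tg (red) whole muscle libraries, with the replicate number above each point. WT replicate 2 is the highest library in all 8 panels, at 138 CPM for Scd1 and 34.9 CPM for Adipoq. It is not the highest for Fads1, Plin1 and Adrb3, which are not shown.

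Genes next to these pathways were read from 6 further lists. Between Tg and WT muscle Tregs edgeR called 0 genes of any of them, where 0.121% of all tested genes were called higher and 0.197% lower. At such low shares 0 calls is no result about these lists. Of 8 genes of sterol export and esterification, 7 had a positive log2 fold change (median 0.18), where 50.5% of all genes lay below 0. Among them were Abcg1, a cholesterol exporter, with 207 ± 36.4 CPM in Tg and 170 ± 3.85 in WT muscle, and Soat1, which esterifies cholesterol, with 179 ± 21.6 and 154 ± 4.78 (SD, n = 2 each). Of the 11 genes of the non-sterol branch of the mevalonate pathway, which attaches prenyl groups to proteins, 7 were positive and 4 negative (median 0.06). Neither of these lists leaned low as the sterol enzymes did. The other lists had medians below 0. For SREBP transport and cleavage 3 of 4 genes were negative (median -0.19), and for fatty acid oxidation 6 of 10 (-0.17). For fatty acid supply and elongation 5 of 10 were negative (-0.11), and for sterol uptake and traffic 5 of 8 (-0.07). The differences between lists were not tested.

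Between tissues in WT mice, 2 of 8 genes of sterol uptake and traffic rose and 1 fell, where 9.38% of all genes were called higher and 6.87% lower. Npc2, a lysosomal cholesterol carrier, rose by 0.72 (677 ± 67.7 CPM in WT muscle against 413 ± 41.6 in WT spleen) and Lipa, the lysosomal lipase gene, fell by 0.74 on the log2 scale, with edgeR adjusted p of 0.00177 and 0.0172. In Tg mice, where 4.83% of all genes were called higher and 2.55% lower, 2 of the 8 rose and 0 fell. Npc2 rose by 0.58 and Gramd1a, a sterol transporter at membrane contacts, by 0.64, with adjusted p of 0.0126 and 0.0240. Of the farnesyltransferase genes, the beta subunit gene Fntb fell by 1.29 in WT mice (adjusted p = 0.00891) and the alpha subunit gene Fnta fell by 1.75 in Tg mice (adjusted p = 0.00651), with no test between genotypes past the threshold for either. Of 4 genes of SREBP transport and cleavage, 1 was positive and 3 were negative in WT mice (median -0.33). The positive gene was Sec23a, a coat protein of the vesicles that carry Scap, which rose by 0.80 (edgeR adjusted p = 0.0125). In Tg mice 0 of the 4 were called.

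Fatty acid oxidation, the route opposed to synthesis, had 3 of 10 tested genes higher and 1 lower in WT muscle than in WT spleen Tregs, against 9.38% and 6.87% of all genes. In Tg muscle against injured Tg spleen Tregs 0 of the 10 were called, against 4.83% and 2.55% of all genes. There 5 were positive and 5 negative (median -0.05). Calls in genes outside the 32 were not checked under the alternatives. Cpt1a, the gatekeeper of mitochondrial fatty acid import, stood at 143 ± 14.0 CPM in WT muscle and 65.3 ± 1.31 in WT spleen (SD, n = 2 each), a log2 fold change of 1.13 (SE 0.20, edgeR adjusted p = 0.00149). Cpt2, its partner on the inner membrane, fell by 1.00 (adjusted p = 0.0314). Cpt1a was also higher in spleen Tregs of injured Tg than of WT mice, by 0.90 (SE 0.20, adjusted p = 0.0433). Of 10 tested genes of fatty acid supply and elongation, 0 were called between tissues in Tg mice. In WT muscle against WT spleen Tregs 2 fell, Mlycd by 1.63 and Acsl1 by 1.51 (edgeR adjusted p of 0.0293 and 0.0277), and 0 rose. Of the 10 cell cycle genes 4 rose there, against 9.38% of all genes, led by Mki67 at 1.49 and Mcm5 at 1.35 (adjusted p of 0.0199 and 0.0363). Their summed level by library total was 1081 and 822 CPM in WT muscle and 738 and 361 CPM in WT spleen, the lowest being WT spleen replicate 2, the library with the high B cell markers. In Tg mice 1 rose in muscle against injured spleen, Mcm2 at 0.71 (adjusted p = 0.0112), against 4.83% of all genes.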

How the data were processed

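RNA of 10 Treg and 6 whole muscle libraries was made into cDNA with oligo(dT) priming and Nextera XT, an unstranded library type, per the labels' protocols. The deposited values are raw read counts per gene. STAR 2.5.4, featureCounts and build mm10 are named in the submitters' processing notes, and no source used here gives the counting options or annotation. Counts were analysed with edgeR 4.0.16 in R 4.3.3 (filterByExpr, TMM, robust quasi-likelihood fit, Benjamini-Hochberg threshold 0.05) in 1 fit of the 5 Treg groups (13188 genes) and 1 of the 2 whole muscle groups (12377 genes). Alternatives used DESeq2 1.42.0, limma 3.58.1, other scaling, filters and sample sets, and each library left out. The script was tested on simulated data.

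The genes, the lists of neighbouring pathways and the markers were chosen with earlier results of these data known. Members called in a comparison are named, and from each other list up to 2 called genes with the largest change. Gene positions are from GENCODE M21, whose build is the one the files use. Motifs were searched on both strands, and read sharing was computed from exon stretches of 25 bases. A few genes were left out of the lists and are not analysed here.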

Additional observations from a re-analysis of the deposited data

How the results depend on the processing

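The number of the 30 genes called was small and moved with the settings. In WT muscle against WT spleen Tregs it was 3, and became 6 with limma-voom, 0 in a fit of the compared groups only, and 0 to 4 with 1 library left out (0 without WT muscle replicate 2, WT spleen replicate 1 or WT spleen replicate 2). In Tg muscle against injured Tg spleen Tregs it was 1, and became 2 without the low-count filter, 2 with DESeq2 and 2 with the replicate block, and 0 to 1 with 1 library left out. There, without Tg muscle replicate 1, the called gene was Hmgcs1 in place of Srebf1. In Tg against WT muscle Tregs it was 1, and became 2 without the low-count filter and 0 with relative log expression scaling, with a filter at 5 CPM, with limma-voom, without receptor segments and in a fit of the compared groups only. With 1 library left out it ran from 0 to 2 (0 without Tg muscle replicate 1 or 2). The cause of these moves was not tested.

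After TMM scaling the summed levels that moved by more than their SD were the sterol enzymes in WT muscle (961 CPM) and WT spleen Tregs (903), the regulators in WT muscle (727) and uninjured Tg spleen (533), and the fatty acid enzymes in Tg muscle (560), WT muscle (741) and WT spleen (671). Fold changes were also recomputed for each gene and comparison with an unadjusted p under 0.05, and 0 reversed. That choice favours a kept direction. Over the 8 alternatives other than leaving out a library, Srebf1 in Tg muscle against injured Tg spleen was called in 8. In WT muscle against WT spleen, Ebp and Scd2 were called in 7 each and Tm7sf2 in 6. Hmgcs1 in Tg against WT muscle was called in 3. Some values that were not called in the main fit passed in some alternatives, such as Acly in WT muscle against WT spleen in 4.

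Over all genes, calls ran from 887 to 2768 (2143 as reported) in WT muscle against spleen, 452 to 1377 (973) in Tg muscle against spleen, 10 to 361 (42) in Tg against WT muscle, 57 to 372 (172) in Tg against WT spleen, 0 to 5 (0) for injury, 3 to 241 (18) for the interaction and 2 to 11 (4) in whole muscle. Same-numbered Treg libraries correlated at no more than 0.0936, so the labels' numbers were not taken as pairs. The interaction was not run on the compared groups only. With 2 libraries per Treg group, a gene such as Idi1, with 6 counts in a library, is limited by depth.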
